A study of Mus musculus with 8 samples.

Results

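The mitochondrial genome of the mouse encodes subunits of the respiratory chain, and 10 of these genes were examined in microvascular cells with and without LRP1, a large endocytic receptor related to the LDL receptor. The genes were mt-Nd1, mt-Nd2, mt-Nd4 and mt-Nd5 of complex I, mt-Cytb of complex III, mt-Co1, mt-Co2 and mt-Co3 of complex IV, and mt-Atp6 and mt-Atp8 of complex V. They were taken from the table by gene symbol, and each had 1 of the 22520 rows of the expression table. RNA sequencing had been performed on 8 libraries, 4 labelled wild type (WT) and 4 labelled LRP1 KO, from C57BL/6 mice at postnatal day 14. The labels call the material of every library a mix of microvesicular cells from heart, liver and lung. By the study's methods, microvascular endothelial cells were captured on PECAM-1 antibody beads, KO mice carried floxed Lrp1 alleles and Cdh5-CreER, and WT littermates carried the same floxed alleles without Cre. Cdh5-CreER is an inducible Cre recombinase driven by the promoter of an endothelial cadherin, and the presence of Cre and the loss of Lrp1 cannot be told apart in this design. The labels do not say whether the libraries of a group came from separate animals or pools, so every p-value measures the spread between these libraries, which may be technical.

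Mitochondria keep a small circular genome whose protein genes all serve oxidative phosphorylation. Complex I takes electrons from NADH, complex III passes them to cytochrome c, complex IV hands them to oxygen, and complex V uses the resulting proton gradient to make ATP. All of these complexes also contain subunits encoded in the nucleus, whereas complex II has no mitochondrially encoded subunit. Mitochondrial genes are read as long transcripts that are then cut at the transfer RNAs, so that the amount of each messenger RNA depends on processing and stability as well as on transcription. Endothelial cells draw much of their ATP from glycolysis and use their mitochondria also for signaling and biosynthesis.

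The annotated mitochondrial genome (GENCODE M21 on GRCm38, which is mm10) holds 37 genes, of which 13 encode proteins, and all 13 had a row in the table. The 3 protein genes outside the set of 10 were mt-Nd3, mt-Nd4l and mt-Nd6. All 10 genes lie on the plus strand of chromosome M and have no intron. From the lowest coordinate they are mt-Nd1 at chrM:2751-3707, mt-Nd2 at chrM:3914-4951, mt-Co1 at chrM:5328-6872, mt-Co2 at chrM:7013-7696, mt-Atp8 at chrM:7766-7969 and mt-Atp6 at chrM:7927-8607. They go on with mt-Co3 at chrM:8607-9390, mt-Nd4 at chrM:10167-11544, mt-Nd5 at chrM:11742-13565 and mt-Cytb at chrM:14145-15288. The lengths run from 204 bases for mt-Atp8 to 1824 bases for mt-Nd5. The annotated mt-Co3, mt-Nd4 and mt-Cytb end 1 base past a whole codon, and their stop codon is completed when the poly(A) tail is added.

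The sequence of mt-Atp8 is shown because this gene had the largest estimate of the 10 and shares bases with its neighbour. It is given 5′ to 3′ on the plus strand of chrM:7766-7969, from the GENCODE transcripts, with capitals for the 43 bases, from base 162 to base 204, that are also the start of mt-Atp6.
mt-Atp8: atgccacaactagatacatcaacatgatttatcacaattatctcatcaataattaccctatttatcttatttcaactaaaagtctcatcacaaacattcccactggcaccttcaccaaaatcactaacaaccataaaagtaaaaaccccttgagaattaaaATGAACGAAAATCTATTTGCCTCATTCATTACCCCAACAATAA
The overlap is 21.1% of mt-Atp8 and 6.31% of mt-Atp6, and a read within it fits both genes. Because mt-Atp8 is the shortest of the set, its FPKM also depends most on how length is corrected.

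The sequence of mt-Nd4l, a complex I gene outside the set, is shown because a nuclear copy of it has a row of its own. The sequence is that of the plus strand at chrM:9877-10173, and capitals mark the 294 bases that are identical to Gm10222, a pseudogene of 294 bases on the minus strand at chr1:24612407-24612700.
mt-Nd4l: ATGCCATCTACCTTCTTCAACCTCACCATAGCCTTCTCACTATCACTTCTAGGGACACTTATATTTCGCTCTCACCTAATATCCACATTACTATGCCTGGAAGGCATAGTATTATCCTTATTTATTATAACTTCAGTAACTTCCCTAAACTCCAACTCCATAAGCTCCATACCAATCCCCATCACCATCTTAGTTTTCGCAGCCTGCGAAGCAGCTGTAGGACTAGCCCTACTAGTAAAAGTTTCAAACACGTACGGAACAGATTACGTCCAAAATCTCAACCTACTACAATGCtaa
Only the last 3 bases lie outside the copy. The FPKM of Gm10222 was 174, 257, 587 and 488 in WT libraries 1 to 4 and 738, 397, 955 and 316 in LRP1 KO libraries 1 to 4. It was 1.003 to 1.01 times that of mt-Nd4l in each of the 8 libraries, so the 2 rows followed each other and their reads cannot be told apart.

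Gm10222 belongs to a stretch of chromosome 1, chr1:24611535-24616197, that holds copies of 7 mitochondrial genes, among them mt-Nd4, mt-Co3, mt-Atp6, mt-Co2 and part of mt-Co1. Of the 50-base stretches of each gene, the share found in an annotated nuclear transcript was 100% for mt-Co2, 99.9% for mt-Co3, 99.5% for mt-Atp6, 62.2% for mt-Nd4 and 51.1% for mt-Co1. It was 8.19% for mt-Nd2 and 7.61% for mt-Nd5. None of the stretches of mt-Nd1, mt-Cytb or mt-Atp8 was shared, so the annotated nuclear copies do not bear on these 3 genes at that length. Apart from Gm10222, the copies on that stretch have no row in the table analysed here, and Gm4076, which shares 4.11% of the stretches of mt-Nd5, was listed at 0. How reads that fit several places were assigned is not given in the sources used here, so the values of the 5 genes with large shares are uncertain to that extent.

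The values are FPKM (fragments per kilobase, scaled to the mapped fragments of a library), a unit that was inferred, and had been forced to a common distribution over the libraries, whose sums ran only from 503571 to 504112. From rank 1 to rank 71 each library held the same list of values, down to 882, and 66 of the 80 values of the 10 genes lay on these ranks. For those values the FPKM is the rank of the gene in its library written in another form, and no read depth can be recovered from it. Further down the lists no longer matched rank for rank, but values recurred there too. An FPKM of 733 was that of mt-Nd5 in WT library 3, at rank 99, and of mt-Nd4l in LRP1 KO library 1, at rank 100. The normalization thus ties the other 14 member values, and those of all other genes, to rank as well. The targeted gene matched the labels, since Lrp1 had an FPKM of 113, 140, 103 and 124 in WT libraries 1 to 4 and of 3.45, 5.197, 2.79 and 7.72 in LRP1 KO libraries 1 to 4. On the log2(FPKM + 1) scale it fell by 4.45 (SE 0.23, limma, adjusted p = 8.89e-05). The summed FPKM of 20 endothelial markers was 208 to 223 in WT and 752, 462, 549 and 211 in LRP1 KO libraries 1 to 4, so that library 4 stood at the WT level. That of 18 macrophage markers was 97.4 to 131.7 in WT and 481, 716, 296 and 637 in LRP1 KO. Against the endothelial label, 13 fibroblast markers summed to 2724 to 3902 in WT and 2260 to 3529 in LRP1 KO, above the endothelial sum in every library. Among epithelial and muscle genes of the source organs, Alb of hepatocytes stayed at 0.108 or less and alveolar Sftpc at 0.181 or less. By contrast, Ager and Scgb1a1 of lung reached 4.34 and 3.42 and the cardiomyocyte gene Tnnt2 stood at 81.6 to 151.9. These were exceptions in their lists, since 2 of 12 lung epithelial and 3 of 14 cardiomyocyte markers reached 1 FPKM in 4 or more libraries. Apart from Tnnt2 every cardiomyocyte marker was at 10.13 or less, with Myh6 at 1.51 or less and Tnni3 at 1.33 or less.

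Expression was compared between LRP1 KO and WT to ask how the loss of LRP1 changed the messenger RNA of the cells. All 10 mitochondrially encoded genes had a mean in LRP1 KO above that in WT, by 1.02 to 1.72 times in FPKM. No member passed the test, which called a gene at an adjusted p-value under 0.05 in a limma fit over the 11389 genes tested, while 714 of those genes (6.27%) were called higher, 833 (7.31%) lower and 1547 (13.6%) in either direction. At an unadjusted p under 0.05 stood mt-Co1, mt-Atp8 and mt-Nd2, 3 of the 10, against 33.7% of the genes tested. The WT and LRP1 KO values overlapped for each of the 10, whereas they did not overlap for 19.6% of the genes tested. The median estimate was 0.28 for the members and -0.01 for all genes tested, of which 48.1% had an estimate above 0. Exact two-sided permutation tests of 4 libraries against 4, which cannot give less than 0.0286, gave p-values from 0.0857 to 0.8286.

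**Figure D1:**
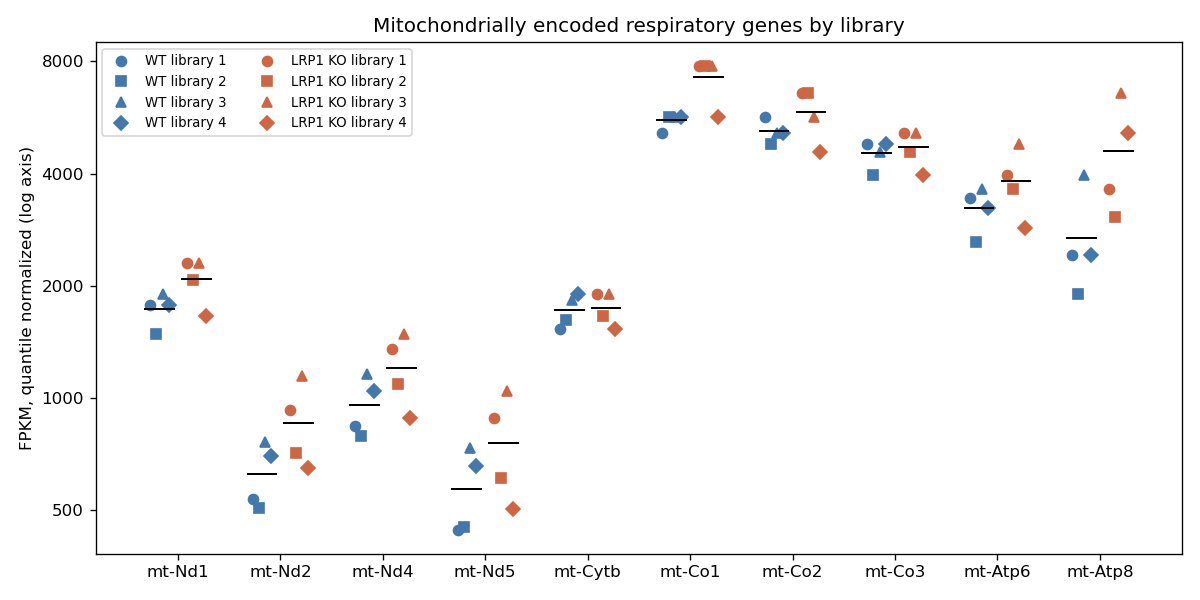
FPKM of the 10 mitochondrially encoded genes on a log axis, with a blue symbol for each of the 4 WT and an orange symbol for each of the 4 LRP1 KO libraries and a black line for the group mean. LRP1 KO libraries 1 and 3 each lie above all WT libraries for 8 of the 10 genes, while LRP1 KO library 4 lies within the WT range for 8.

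Complex IV held the highest values. mt-Co1, the catalytic core of cytochrome c oxidase, had an FPKM of 5151, 5692, 5692 and 5692 in WT and 7793, 7793, 7793 and 5692 in LRP1 KO. It was thus the highest of all genes in LRP1 KO libraries 1 to 3, and at the prevailing WT value in library 4. The mean was 5557 ± 270.2 (SD, n = 4) in WT and 7268 ± 1051 in LRP1 KO, an estimate of 0.38 on the log2 scale (SE 0.11, 95% CI 0.12 to 0.63, limma, adjusted p = 0.0558), just short of the threshold. The exact permutation test gave p = 0.114.

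The value of mt-Co1 was tied to those of other abundant genes, because it is set by rank. In WT it held rank 4, 3, 3 and 3, and in LRP1 KO rank 1, 1, 1 and 3. Rank 1 was held in all WT libraries by Mgp, which encodes matrix Gla protein, an inhibitor of calcification, and rank 2 by Fth1, the heavy chain of the iron store ferritin. Both were picked with their values in view. Mgp stood at ranks 17, 4 and 12 in LRP1 KO libraries 1 to 3 and at rank 1 in library 4, and Fth1 stood at ranks 3, 3, 6 and 2. For Mgp the estimate was -0.99 (SE 0.35, limma, adjusted p = 0.0847) and for Fth1 it was -0.23 (SE 0.11, limma, adjusted p = 0.153). The step from rank 3 to rank 1 is worth 0.45 on the log2 scale by construction, and rank 1 is a ceiling above which no rise can be seen.

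**Figure D2:**
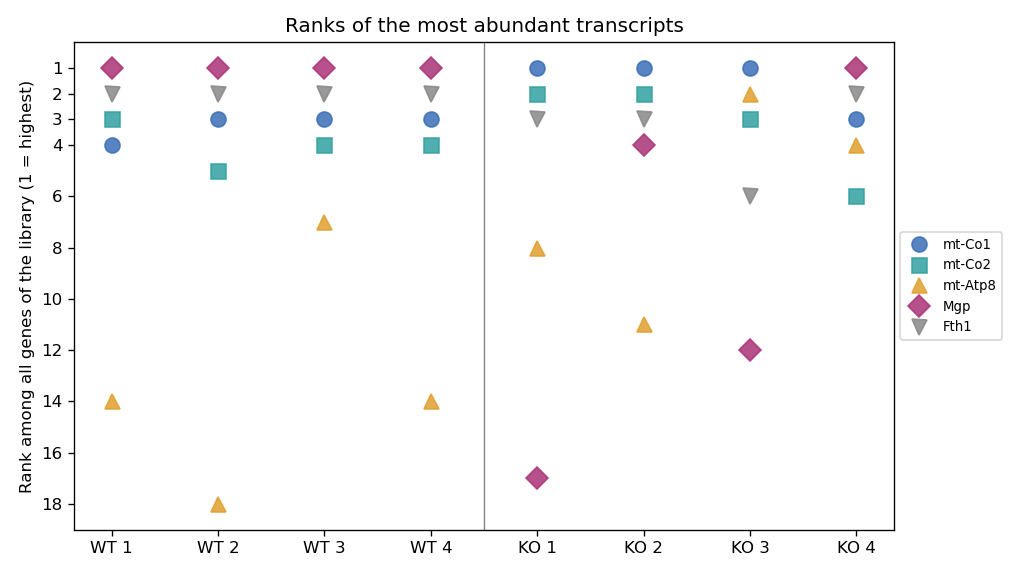
Rank within each library, with rank 1 the highest value of all genes, for mt-Co1, mt-Co2, mt-Atp8, Mgp and Fth1 in the 8 libraries. mt-Co1 takes rank 1 in LRP1 KO libraries 1 to 3, where Mgp stands at ranks 17, 4 and 12, and Mgp holds rank 1 in the other 5 libraries.

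The other members of complex IV differed less. mt-Co2, which carries the copper site that receives electrons from cytochrome c, had an FPKM of 5692, 4807, 5151 and 5151 in WT and 6571, 6571, 5692 and 4582 in LRP1 KO. LRP1 KO libraries 1 and 2 were above every WT library and library 4 was below them all, and the estimate was 0.16 (SE 0.12, limma, adjusted p = 0.386), or 0.098 without LRP1 KO library 1 or 2. mt-Co3, a core subunit without metal centres, had 4807, 3977, 4582 and 4807 in WT and 5151, 4582, 5151 and 3977 in LRP1 KO. Its groups overlapped widely, with an estimate of 0.05 (SE 0.11, limma, adjusted p = 0.771).

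The largest estimate among the members was that of mt-Atp8, a small membrane subunit of the ATP synthase. It had an FPKM of 2421, 1905, 3977 and 2421 in WT and 3645, 3055, 6571 and 5151 in LRP1 KO. WT library 3 reached above LRP1 KO libraries 1 and 2, and mt-Atp8 was the only member for which LRP1 KO library 4 was above all WT libraries. The mean was 2681 ± 898 in WT and 4605 ± 1580.04 in LRP1 KO, with an estimate of 0.77 (SE 0.27, 95% CI 0.16 to 1.39, limma, adjusted p = 0.0865). The exact permutation test gave p = 0.0857. mt-Atp6, the subunit of the membrane sector that forms the path for protons, had 3451, 2624, 3645 and 3230 in WT and 3977, 3645, 4807 and 2866 in LRP1 KO, an estimate of 0.23 (SE 0.16, limma, adjusted p = 0.343) that was 0.11 without LRP1 KO library 3, 0.13 without WT library 2 and 0.36 without LRP1 KO library 4.

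Although mt-Atp8 and mt-Atp6 lie on the same transcript, their ratio was not constant. It was 0.702, 0.726, 1.09 and 0.750 in WT and 0.916, 0.838, 1.37 and 1.80 in LRP1 KO. WT library 3 and LRP1 KO libraries 3 and 4 were the 3 in which mt-Atp8 exceeded mt-Atp6. The mean ratio was 0.817 ± 0.184 in WT and 1.23 ± 0.444 in LRP1 KO, and it was 1.04 in LRP1 KO without library 4.

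In complex I the estimates were alike in size, and none passed the test. mt-Nd1, a membrane subunit next to the site where ubiquinone is reduced, had an FPKM of 1778, 1483, 1905 and 1778 in WT and 2298, 2075, 2298 and 1656 in LRP1 KO. LRP1 KO libraries 1 to 3 were above all WT libraries, and library 4 was within them. The mean was 1736 ± 179 in WT and 2082 ± 303 in LRP1 KO, and the estimate was 0.26 (SE 0.12, 95% CI -0.01 to 0.53, limma, adjusted p = 0.167).

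The other 3 members of complex I, mt-Nd2, mt-Nd4 and mt-Nd5, are related to antiporter subunits and lie in the membrane arm that moves protons. mt-Nd2 had an FPKM of 538, 509, 765 and 700.4 in WT and 927, 715, 1147 and 649 in LRP1 KO, with an estimate of 0.44 (SE 0.19, limma, adjusted p = 0.146). mt-Nd4 had 844, 793, 1163 and 1043 in WT and 1354, 1094, 1483 and 882 in LRP1 KO, with 0.31 (SE 0.18, limma, adjusted p = 0.237). In both, LRP1 KO libraries 1 and 3 were above all WT libraries and libraries 2 and 4 were not. mt-Nd5 was the lowest of the 10, at 442, 452, 733 and 658 in WT and 882, 611, 1043 and 504 in LRP1 KO, and it varied most in LRP1 KO apart from mt-Atp8, its highest value being 2.07 times its lowest. Its estimate was 0.39 (SE 0.25, limma, adjusted p = 0.296). Without LRP1 KO library 3 the estimates were 0.29 for mt-Nd2, 0.20 for mt-Nd4 and 0.22 for mt-Nd5. WT libraries 3 and 4 were above WT libraries 1 and 2 for all 3 genes, so part of the spread lay within the WT group.

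mt-Cytb, the only subunit of complex III encoded in mitochondria, differed least between the groups. It had an FPKM of 1533, 1618, 1833 and 1905 in WT and 1905, 1656, 1905 and 1533 in LRP1 KO. The lowest and the highest value were the same in both groups. The mean was 1722 ± 175 in WT and 1749.9 ± 186 in LRP1 KO, and the estimate was 0.02 with a 95% CI of -0.20 to 0.25 (limma, adjusted p = 0.900). By complex, the median estimate was 0.35 for the 4 members of complex I, 0.16 for the 3 of complex IV and 0.50 for the 2 of complex V.

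Of the 3 mitochondrial protein genes outside the set, mt-Nd4l ranged from 173 to 584 in WT and from 315 to 947 in LRP1 KO, an estimate of 0.70 (SE 0.44, limma, adjusted p = 0.295). mt-Nd3 had an estimate of 0.11 (SE 0.13, limma, adjusted p = 0.560). mt-Nd6, the only protein gene on the minus strand, had an estimate of 0.11 (SE 0.12, limma, adjusted p = 0.577). It overlaps mt-Nd5 by 14 bases on the opposite strand, and whether the libraries kept strand is not given in the sources used here. All 3 estimates were above 0, and none was called.

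**Figure D3:**
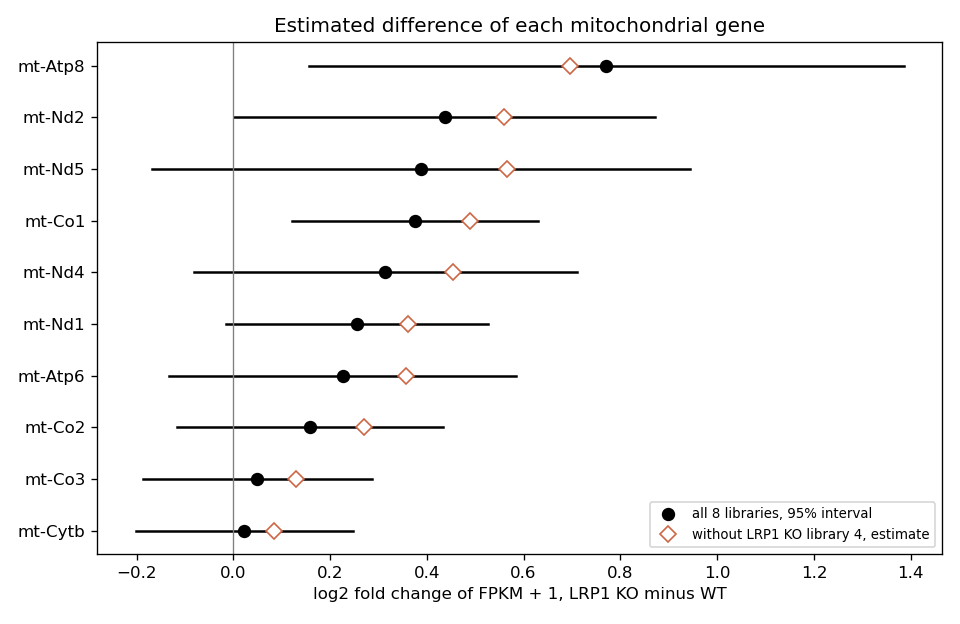
Difference LRP1 KO minus WT in log2(FPKM + 1) for the 10 mitochondrially encoded genes, as black points with their 95% CI from the limma fit to 8 libraries, and as open diamonds for the estimate without LRP1 KO library 4. With all 8 libraries the members lie above 0, from 0.02 for mt-Cytb to 0.77 for mt-Atp8, and the intervals of mt-Co1, mt-Atp8 and mt-Nd2 exclude 0 before adjustment.

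The order of the members is given on the FPKM scale, which is per length, and holds only as far as the shared rank values, the length correction of mt-Atp8 and the nuclear copies allow. In WT the mean FPKM followed the order mt-Co1, mt-Co2, mt-Co3, mt-Atp6, mt-Atp8, mt-Nd1, mt-Cytb, mt-Nd4, mt-Nd2 and mt-Nd5, so that complex IV led and 3 genes of complex I came last. Neighbours whose WT ranges did not overlap were mt-Co3 and mt-Atp6 (4543 and 3237), mt-Cytb and mt-Nd4 (1722 and 961), and mt-Nd4 and mt-Nd2 (961 and 628). The other neighbours overlapped. mt-Nd1 was above mt-Cytb in 2 of the 4 WT libraries and in 4 of the 4 LRP1 KO libraries, and mt-Atp6 was above mt-Atp8 in 3 WT and 2 LRP1 KO libraries. mt-Co1 was above mt-Co2 in 3 of the 4 WT libraries, the exception being WT library 1. mt-Atp8 stood above mt-Co2 and mt-Co3 in LRP1 KO libraries 3 and 4.

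Together the 10 genes held 5.29, 4.74, 5.85 and 5.44% of the summed FPKM of a library in WT and 6.85, 6.31, 7.52 and 5.46% in LRP1 KO. LRP1 KO libraries 1 to 3 were above all WT libraries, and library 4 lay between WT libraries 4 and 3. The mean was 5.33 ± 0.459% in WT and 6.53 ± 0.869% in LRP1 KO, a difference of 1.21 percentage points, or 1.56 without LRP1 KO library 4. Since the sums of the libraries were forced to be nearly equal, a larger share of the members is by construction a smaller share of the other genes. With all 13 mitochondrial genes the means were 5.83% and 7.11%. Complex IV gave 3.04 ± 0.111% in WT and 3.54 ± 0.479% in LRP1 KO, and complex V gave 1.18 ± 0.254% and 1.67 ± 0.405%. Complex I gave 0.774 ± 0.118% and 0.974 ± 0.201%, and mt-Cytb gave 0.342 ± 0.0349% and 0.347 ± 0.0368%. In bulk RNA a change in the number of cells of a type cannot be told apart from a change in RNA per cell.

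**Figure D4:**
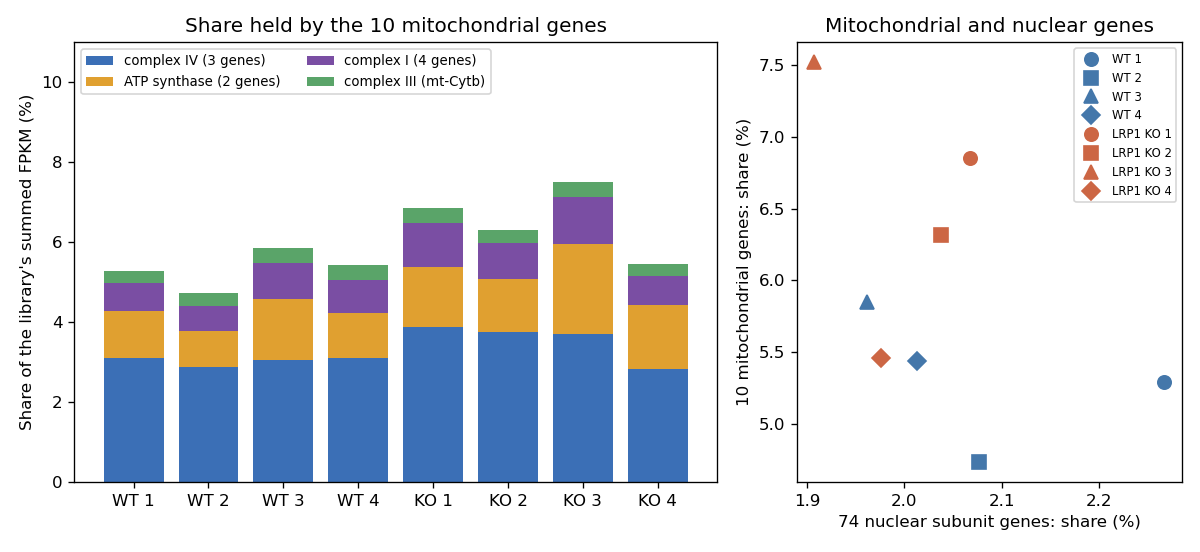
Left, share of the summed FPKM of each of the 8 libraries, in percent, held by the 10 mitochondrially encoded genes, stacked by complex (KO, LRP1 KO). Right, the same share against that of the 74 nuclear genes for subunits of complexes I to V, with 1 symbol per library, where LRP1 KO libraries 1 to 3 lie above all WT libraries on the vertical axis and within or below the WT range of 1.96 to 2.27% on the horizontal axis.

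LRP1 KO library 4 stood apart from the others of its group. It exceeded the WT mean for 3 of the 10 members, whereas LRP1 KO libraries 1 to 3 did so for 10, 9 and 10, and WT libraries 1 to 4 for 4, 1, 9 and 7. It was the library whose endothelial markers stood at the WT level and whose macrophage markers stood at the LRP1 KO level. Pecam1 was at 6.80 to 8.76 in WT and 36.3, 18.5, 26.2 and 6.72 in LRP1 KO libraries 1 to 4, and Cdh5 was at 8.87 to 11.2 in WT and 47.3, 21.5, 33.9 and 8.56 in LRP1 KO. Without that library, 2 members were called higher, when 12.3% of the 11297 genes then tested were called higher. These were mt-Co1, with an estimate of 0.49 (SE 0.07, limma, adjusted p = 0.00198), and mt-Nd1, with 0.36 (SE 0.09, limma, adjusted p = 0.0220). For mt-Co1 the 3 remaining LRP1 KO libraries then shared the ceiling of 7793 and 3 of the 4 WT libraries shared 5692, so that the small SE comes from values fixed by rank and the p-value does not measure the spread between libraries. mt-Co2 then had 0.27 (limma, adjusted p = 0.0500344), and the median of the 10 was 0.41. The share of the members also moved with LRP1 KO library 3, without which the difference was 0.879 percentage points, and the estimate of mt-Atp8 was lower, 0.70, without LRP1 KO library 4. Of the 20 endothelial markers 18 were tested and all 18 had an estimate above 0. Called higher were 2 (11.1%), against 6.27% of all genes tested with 8 libraries. In LRP1 KO both the endothelial sum and the members' share were lowest in library 4. The highest sum was in LRP1 KO library 1 and the highest share in library 3, and in WT the share ran from 4.74 to 5.85% while the endothelial sum stayed at 208 to 223. Of the 18 macrophage markers 15 were tested, 14 had an estimate above 0 and 13 (86.7%) were called higher. The exception in direction was Cd14, at -0.47 (SE 0.20, limma, adjusted p = 0.136). LRP1 KO library 4, with members at the WT level, had a macrophage sum of 637. All 13 fibroblast markers were tested. Against 6.27% of all genes called higher and 7.31% lower, 1 had an estimate above 0 and was called higher and 3 were called lower. Among the latter, Pdgfra was at 37.4 to 50.9 in WT and 14.2, 23.2, 18.04 and 37.7 in LRP1 KO libraries 1 to 4, and Dpt was at 23.4 to 43.9 in WT and 2.26, 9.30, 6.24 and 23.4 in LRP1 KO, so that library 4 was again nearest to WT. Of 14 markers of cardiomyocytes, which are rich in mitochondria, 3 were tested, 2 had an estimate above 0 and none was called. Their sum was 102 to 156 in WT and 91.2 to 128 in LRP1 KO, most of it Tnnt2, which was lower in the mean of LRP1 KO (96.1 against 124 in WT). Low cardiomyocyte genes differed in direction, with higher means in LRP1 KO for Myl7 (1.34 ± 0.296 in WT and 3.96 ± 2.36 in LRP1 KO) and Myh6 (0.297 ± 0.114 and 1.02 ± 0.404) and a lower mean for Tnni3 (1.15 ± 0.142 and 0.732 ± 0.234). The mean log2(FPKM + 1) of the list was 0.850 to 1.09 in WT and 0.956 to 1.30 in LRP1 KO. The part of these cell types in the result was not tested.

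The members varied together across libraries. Over the 8 libraries the correlation of log2(FPKM + 1) between members was above 0 in all 45 pairs, with a median Pearson r of 0.73, a lowest value of 0.05 that involved mt-Atp8, and a highest of 0.99. Without mt-Atp8 the lowest was 0.32. These values are a description, since all points share the normalization and both groups enter. LRP1 KO library 3 had the highest or tied highest value for 9 of the 10 members, and WT library 2 the lowest or tied lowest of the WT libraries for 7.

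Outside the mitochondrial genome, the genes whose pattern over the 8 libraries was most like the mean of the members were Plcb4 (r = 0.991), a phospholipase C that cleaves membrane phosphoinositides, Lats2 (r = 0.990), a kinase of the Hippo pathway, Akap2 (r = 0.987), an anchor for protein kinase A, Erlin2 (r = 0.987), a protein of the endoplasmic reticulum, and Tmf1 (r = 0.983), a Golgi protein. Lats2 had an FPKM of 28.3, 27.0, 36.0 and 32.8 in WT and 42.7, 37.1, 47.0 and 32.7 in LRP1 KO. Lats2 was highest in LRP1 KO libraries 1 and 3 and near the WT values in library 4, a likeness to the members that follows from the selection. The 5 genes were picked from all tested genes for the highest r over the same 8 libraries. Their r values are therefore no evidence of a link to the members. None of the 5 was called, with adjusted p-values of 0.0872 to 0.192 in the limma fit.

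Most nuclear partners of the members had estimates below 0. Of 74 nuclear genes for subunits of complexes I to V, all were tested, 24 had an estimate above 0, none was called higher and 2 were called lower, with a median of -0.06 and 12 at an unadjusted p under 0.05. Over all genes tested 7.31% were called lower, 33.7% stood at an unadjusted p under 0.05 and 48.1% had an estimate above 0, so that calls were not more frequent in the list than elsewhere. Uqcrh, the hinge subunit of complex III, had an FPKM of 275 ± 13.0 in WT and 232 ± 16.9 in LRP1 KO and fell by 0.24 on the log2 scale (SE 0.07, limma, adjusted p = 0.0393). Ndufs6, an accessory subunit of complex I, had 70.3 ± 4.14 in WT and 60.4 ± 3.32 in LRP1 KO and fell by 0.21 (SE 0.06, limma, adjusted p = 0.0475). The groups did not overlap for either gene, but neither call held without the filter on low values, without the variance trend, or without any 1 library other than LRP1 KO library 4. The call of Ndufs6 was also lost under either rescaling of the libraries (limma, adjusted p = 0.0502 and 0.0564) and held under 2 of 14 alternatives. Estimates above 0 were found for 10 of 36 genes of complex I, 2 of 4 of complex II, 4 of 9 of complex III, 4 of 10 of complex IV and 4 of 15 of complex V. Without LRP1 KO library 4 the list had 1 gene called higher and 5 called lower, while 26.2% of the genes then tested were called, and its median was -0.05.

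The summed FPKM of the members was 2.33, 2.28, 2.98 and 2.70 times that of the nuclear list in WT and 3.31, 3.10, 3.94 and 2.76 times in LRP1 KO. LRP1 KO libraries 1 to 3 were above all WT libraries, and library 4 lay between WT libraries 4 and 3. The share of the nuclear list itself was 2.08 ± 0.134% in WT and 1.997 ± 0.0712% in LRP1 KO, which differed by less than the spread within WT.

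Genes that maintain, transcribe and process the mitochondrial genome were examined next. None of the 9 tested genes for maintenance of mitochondrial DNA passed the test in either direction, nor did any of the 8 for mitochondrial transcription or the 11 translation factors, with 0, 1 and 1 at an unadjusted p under 0.05. Since 13.6% of all genes tested were called, lists of this size can hold few calls in any case. Tfam, which packages mitochondrial DNA and starts its transcription, had an FPKM of 14.1 ± 2.20 in WT and 14.0 ± 1.71 in LRP1 KO (limma, adjusted p = 0.983). Polrmt, the mitochondrial RNA polymerase, had 8.89 ± 1.499 in WT and 7.41 ± 0.711 in LRP1 KO, an estimate of -0.22 (limma, adjusted p = 0.192). Lrpprc, which stabilises mitochondrial messenger RNA, had an estimate of -0.03 (limma, adjusted p = 0.767). These 3 are named for their roles, outside the rule for named genes.

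Of 19 tested genes for processing and decay of mitochondrial RNA, 1 (5.26%) was called higher, against 6.27% of all genes tested, and none lower. It was Pnpt1, the polynucleotide phosphorylase that degrades RNA within mitochondria and is also known as an interferon-inducible gene. Its FPKM was 7.87, 7.14, 8.16 and 7.85 in WT and 12.1, 11.9, 12.7 and 10.9 in LRP1 KO, without overlap, and it rose by 0.56 (SE 0.07, limma, adjusted p = 0.00211), a call that held under each of 14 alternatives. Of 12 regulators of mitochondrial biogenesis, 8 were tested and none was called, against 13.6% of all genes tested. At an unadjusted p under 0.05 stood 2 of the 8, against 33.7% of all genes tested. Ppargc1a, which encodes the coactivator PGC-1 alpha, did not pass the filter on low values, with 0.286 to 0.888 in WT and 0.0822 to 0.295 in LRP1 KO.

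Nuclear genes for abundant proteins of the outer membrane, the import machinery and the matrix, listed as a gauge of mitochondrial content, were called higher in 4 of 14, or 28.6%, against 6.27% of the genes tested, and lower in none. Their median was 0.10. Vdac2, a channel of the outer membrane, had an FPKM of 306 ± 19.2 in WT and 385 ± 44.4 in LRP1 KO and rose by 0.33 (SE 0.09, limma, adjusted p = 0.0403). Hspd1, the matrix chaperonin, rose by 0.25 (SE 0.06, limma, adjusted p = 0.0330), Tomm40, the import pore of the outer membrane, by 0.24 (SE 0.06, limma, adjusted p = 0.0377), and Timm23, that of the inner membrane, by 0.23 (SE 0.06, limma, adjusted p = 0.0441). As for 9 of the members, LRP1 KO library 4 was the lowest of its group for these 4 genes. Without it 5 genes of the list were called, when 26.2% of the genes then tested were called in either direction. But each of the 4 calls was lost without any 1 of the other 7 libraries (highest adjusted p over the alternatives 0.128, limma), and 1 gene was called without the filter on low values. Of the 76 proteins of the mitochondrial ribosome, which translates the members, 1 was called higher and none lower, with a median of 0.01. It was Mrpl15, with 33.2 ± 1.21 in WT and 38.6 ± 1.75 in LRP1 KO (log2 difference 0.21, SE 0.05, limma, adjusted p = 0.0336), and its call was also lost without any 1 library other than LRP1 KO library 4.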

How the data were processed

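RNA sequencing libraries were made with the Illumina TruSeq kit from total RNA of 4 WT and 4 LRP1 KO samples. The authors deposited a single table of FPKM-like values, a unit inferred from the tools, for which the submitters' processing notes name TopHat2, Cufflinks and mm10 without versions. The study's methods describe counts from other tools and separate liver and heart-lung cells, which differs from the table and its labels. The deposited FPKM values had been quantile normalized across libraries, a step that is not stated in the sources used here. This removes depth, so no counting error could be given. It also sets the FPKM of every gene, abundant or not, by its rank in the library. That can hide a change or spread one gene's change to its neighbours in rank.

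Values were analysed as log2(FPKM + 1) with limma 3.58.1 in R 4.3.3, with group as the only term and a variance trend, because the values are not counts. Genes that reached 1 FPKM in 4 or more libraries were tested (11389 of 22520), including all 10 members. P-values were adjusted by the Benjamini-Hochberg method over all of them, and genes under 0.05 were called. A 2-fold change was a second limit, which none of the 10 members reached. Fold changes on this scale understate those of low genes. The fit was tested on simulated data before use. These were drawn independently for each gene without quantile normalization, so that test cannot speak for values fixed by rank. Gene positions and sequences came from GENCODE M21, in which 21740 identifiers matched. Named genes are all mitochondrial rows, Lrp1, up to 4 called genes of each list that is no cell type list, nuclear copies and the 5 genes most like the mean of the members. Cell type markers, Ppargc1a and the other genes named outside this rule were picked with their values in view. The members and lists were chosen with earlier results of these data known. Mitochondrial ribosomal and transfer RNA were not analysed here. Alternatives were another pseudocount, no filter, 2 rescalings, no trend, ranks, the replicate block and leaving out each library.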

Additional observations from a re-analysis of the deposited data

Results flagged for a closer look

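A library was singled out where its gap to the nearest library of its group, divided by the range of the group, exceeded Dixon's 95% critical value. Over 32 groups of 4 libraries this happened 3 times, and chance alone singles out about 5% of groups. For mt-Co1 the value was 1 for WT library 1 and 1 for LRP1 KO library 4, because the other 3 libraries of each group shared a rank and thus an identical FPKM. For the ratio of mt-Atp8 to mt-Atp6 it was 0.877 for WT library 3, at 1.09 against 0.702 to 0.750 in the other WT libraries.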

How the results depend on the processing

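No member was called with all 8 libraries under a pseudocount of 0.1, no filter, either rescaling or no variance trend. Leaving out each library in turn gave 0 to 2 called members, 433 to 2959 called genes of all tested (1547 with all libraries) and 0 to 6 called nuclear subunit genes (2 with all libraries). The lowest count of all genes came without LRP1 KO library 2, and 478, 468, 502, 841, 914 and 989 were called without LRP1 KO library 1, LRP1 KO library 3, WT library 2, WT library 1, WT library 3 and WT library 4. The highest counts, 2 members, 2959 genes and 6 nuclear genes, all came without LRP1 KO library 4. The 2 calls among nuclear genes were 0 without the filter, 0 without the variance trend and 1 after rescaling to an equal sum outside the mitochondrial genome.

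The replicate numbers do not pair the libraries, since the labels give them no shared meaning and the deviations of same-numbered libraries correlated at 0.158, 0.141, 0.340 and -0.312. With the replicate block 1013 genes, 1 nuclear subunit gene and 1 member were called, the member being mt-Atp8 (0.77, limma, adjusted p = 0.0144). The nuclear gene was Ndufb6 (0.24, limma, adjusted p = 0.0475), named after its value was seen, while Uqcrh (0.0605) and Ndufs6 (0.0929) were not called. None of the 4 calls in the mitochondrial content list held under the block (adjusted p 0.0626 to 0.0719), nor did Mrpl15 (0.0623), and without the variance trend that list had 2 calls. Of 150 estimates for members under 15 alternatives, 142 kept their direction and side of the threshold, 3 passed it (mt-Co1 and mt-Nd1 without LRP1 KO library 4, mt-Atp8 with the block) and 5 turned below 0. These were mt-Co3 at -0.013 without WT library 2 (range -0.013 to 0.129 when each library was left out), and mt-Cytb at -0.0317 without WT library 1 (range -0.0317 to 0.0838), -0.00578 without WT library 2 and -0.0206 without LRP1 KO library 1 or LRP1 KO library 3. The cause was not tested. Chosen with the data in view, the same alternatives were run for the 8 called genes of the other lists and Lrp1, and Pnpt1 and Lrp1 were called under all 14. The adjusted p ranged from 0.00198 to 0.228 for mt-Co1, from 0.0220 to 0.367 for mt-Nd1 and from 0.0144 to 0.210 for mt-Atp8. No exact test on ranks gave a p under 0.05. The difference in the members' share, 1.21 percentage points, ranged from 0.879 to 1.56 when each library was left out and was 1.28 for all mitochondrial rows. Depth is unknown, and the precision rests on 4 libraries a group.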
